A study of Mus musculus with 11 samples.

Results

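The Slc22 organic ion transporters are a family of solute carriers in the plasma membrane, and 9 of them were followed here across 11 kidneys: Slc22a2, Slc22a4, Slc22a5, Slc22a6, Slc22a7, Slc22a8, Slc22a12, Slc22a13 and Slc22a19. The members were taken by symbol from a count table of 25677 genes, which held 23 Slc22 genes in all, and each of the 9 passed the filter on low counts in every comparison. The kidneys came from female mice aged 21 weeks. The Ctr group held 3 C57BL/6J mice, given in the labels as genotype C57B6. The Lpr group held 4 untreated MRL/lpr mice, a lupus-prone strain whose lpr allele disables the death receptor Fas, and the DNase group held 4 MRL/lpr mice that received DNase I each day by intraperitoneal injection from week 17. DNase I is an enzyme that cuts extracellular DNA. Strain and disease both set Ctr apart from the MRL/lpr mice, and they cannot be told apart. The data were RNA-seq of whole kidney, with 1 library per mouse.

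Transporters of this family move charged organic molecules across the cell membrane, and the kidney is a main site of their use. In the proximal tubule, members on the blood-facing side take up organic anions and cations, including many drugs and metabolic waste products, while members on the urine-facing side exchange urate, nicotinate and other anions or recover carnitine. Uptake of organic anions runs in exchange for dicarboxylates, which the sodium pump and the sodium-dicarboxylate cotransporters keep at a high level inside the cell. Hnf4a and related transcription factors are known to drive many of these genes.

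In the untreated MRL/lpr kidneys, Slc22a2, Slc22a13 and Slc22a4 fell against Ctr, to 0.525, 0.447 and 0.555 times the Ctr level as fitted, and the remaining 6 members had lower fitted values that did not pass the test. In the DNase I-treated kidneys, Slc22a19, Slc22a2, Slc22a7 and Slc22a13 were the members that fell against Ctr. No member passed the test between DNase and Lpr. In 8 of 9 members the mean level in DNase lay between those in Lpr and Ctr, and in Slc22a19 it lay below both. This placing rests in part on Lpr replicate 3, a kidney that stood apart. Leaving it out moved the fitted difference between DNase and Lpr from -0.31 to 0.023 for Slc22a19. For Slc22a5 it moved from 0.036 to -0.10, and the other members stayed higher in DNase. The share of all genes with a DNase mean in between is not given here.

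The 9 genes lie on 4 chromosomes of the GRCm38 build. Slc22a8 (chr19:8591254-8611835) and Slc22a6 (chr19:8618039-8628299) are neighbours on the plus strand, 6203 bases apart with no gene between them. Slc22a12 (chr19:6535845-6543032) and Slc22a19 (chr19:7673061-7711310) sit on the minus strand of the same chromosome, and Slc22a19 is the first of a run of relatives that continues with Slc22a26 after 69730 bases. Slc22a5 (chr11:53864542-53891660) and Slc22a4 (chr11:53983123-54028090) flank their close relative Slc22a21. Slc22a2 (chr17:12584132-12628488) and Slc22a7 (chr17:46432183-46438457) share a chromosome, and Slc22a13 (chr9:119192974-119209098) is the 1 member on chromosome 9.

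The encoded proteins, translated from the longest open reading frame of the GENCODE transcripts, are 537 to 557 residues long. Slc22a4 and Slc22a5 share 75.2% of their residues, the closest pair among the 9, and Slc22a6 and Slc22a8 share 47.6%. Some members have close copies outside the list that reads could be split with. The coding sequence of Slc22a5 matches that of Slc22a21 at 89.6% of bases, and Slc22a19 matches Slc22a26 at 76.2%. Exons of Slc22a12 overlap those of Nrxn2, on the opposite strand, by 682 bases, and whether the counting used strand was not given in the sources used here.

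The libraries held 33469858 to 38460873 counted reads, and the members between 998 and 43418 reads in any library, so counting error was small beside the spread between mice. Levels are given as CPM, in which each library is brought to a common total and scaled by the trimmed mean of M-values (TMM), and the test is edgeR's quasi-likelihood test with Benjamini-Hochberg adjustment over all genes tested, passed at an adjusted p below 0.05. Whole-kidney RNA cannot tell fewer cells of a type from less RNA per cell. All 12 proximal tubule markers outside the family were detected, with a summed level of 15439 to 17918 CPM in Ctr, 10361 to 16188 in Lpr and 11445 to 16048 in DNase. The 10 leukocyte markers summed to 34.9 to 51.6 CPM in Ctr, 245 to 554 in Lpr and 252 to 420 in DNase, and 9 of 10 rose in Lpr and 10 of 10 in DNase, both against Ctr. The part of this infiltrate in the members' values was not tested. Replicate 3 of Lpr stood apart from the other libraries. Its counts fell with gene length, by 0.39 on the log2 scale for each doubling of length relative to the mean of all libraries, whereas the slopes of the other 10 libraries lay between -0.04 and 0.08. The 7 tubular injury genes summed to 13289 CPM in that kidney, against 2896, 6065 and 2475 in Lpr replicates 1, 2 and 4. Their mean log2 CPM was highest in Lpr replicate 2, at 7.25 against 7.04 in replicate 3. The 5 podocyte markers summed to 370 CPM in replicate 3, against 709, 625 and 701. The members' fitted differences between Lpr and Ctr are therefore given also without replicate 3, which leaves out the Lpr kidney with the highest injury sum.

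**Figure D1:**
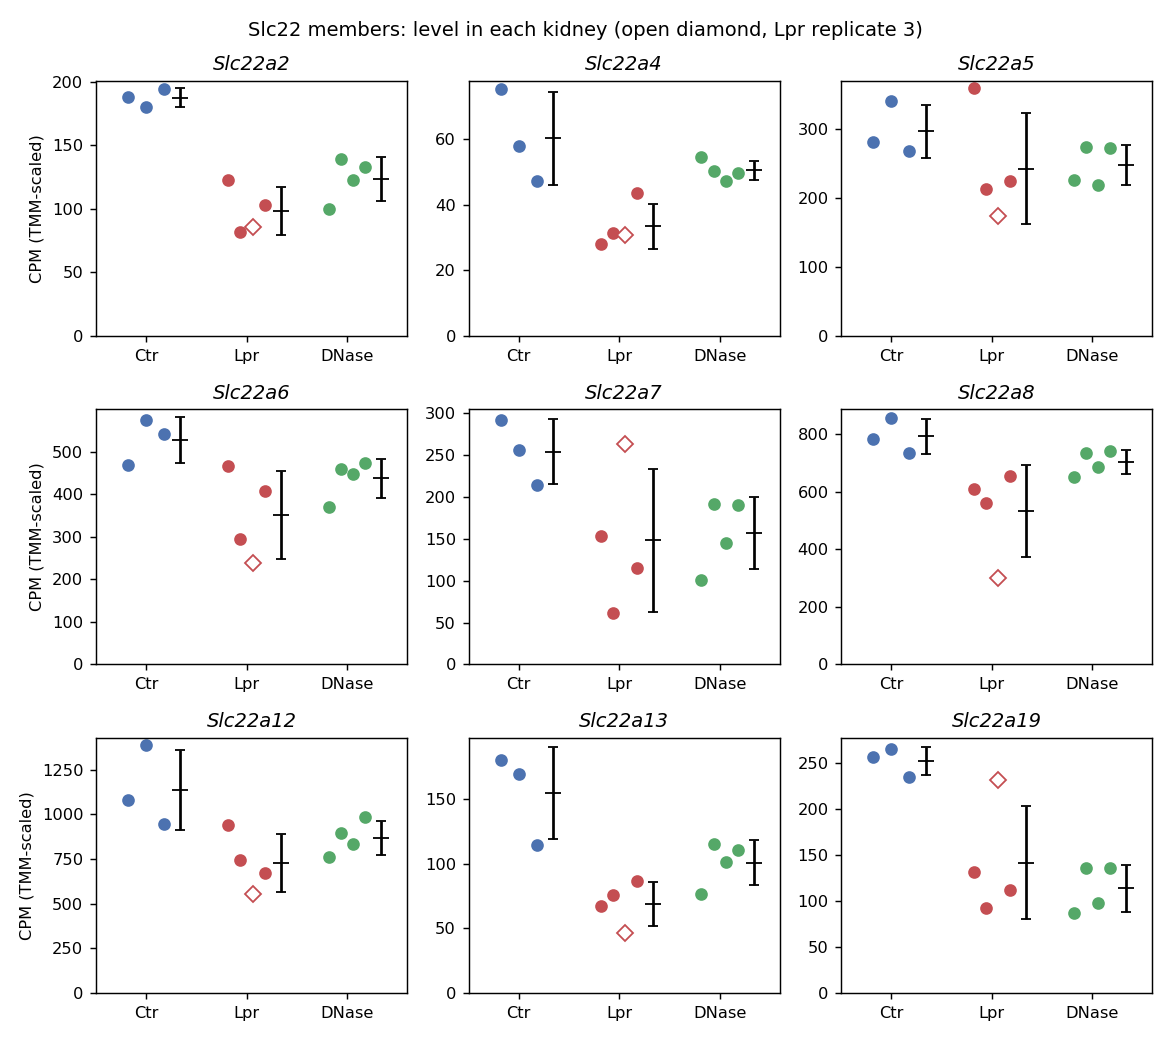
CPM of each member in each kidney, for Ctr (3 mice), Lpr (4 mice) and DNase (4 mice). Points are kidneys, the open diamond is Lpr replicate 3, and the black bar is the group mean with its SD. Slc22a2 shows no overlap between Ctr and either MRL/lpr group, while in Slc22a7 and Slc22a19 the diamond lies near the Ctr kidneys, at 263 and 232 CPM.

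Compared per length, in CPM per kilobase, Slc22a12 was the most abundant member in every group. It encodes URAT1, which recovers urate from the urine, and its mean in Ctr was 504 CPM per kilobase ± 100.1 (SD, n = 3). Slc22a8 came next at 199 ± 15.5 (n = 3), followed by Slc22a6, Slc22a19 and Slc22a7 at 131, 127 and 127, whose ranges overlapped. Below these came Slc22a5 at 92.5, Slc22a2 at 77.5, Slc22a13 at 44.9 and Slc22a4 at 13.6 CPM per kilobase, each apart from its neighbours in the order. The order in the MRL/lpr groups was less distinct. In Lpr the ranges of neighbours overlapped from Slc22a8 at rank 2 to Slc22a2 at rank 7, and in DNase from Slc22a6 at rank 3 to Slc22a2 at rank 7. Slc22a19 held rank 4 in Ctr and rank 6 in both MRL/lpr groups, at 71.5 CPM per kilobase in Lpr and 57.4 in DNase.

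**Figure D2:**
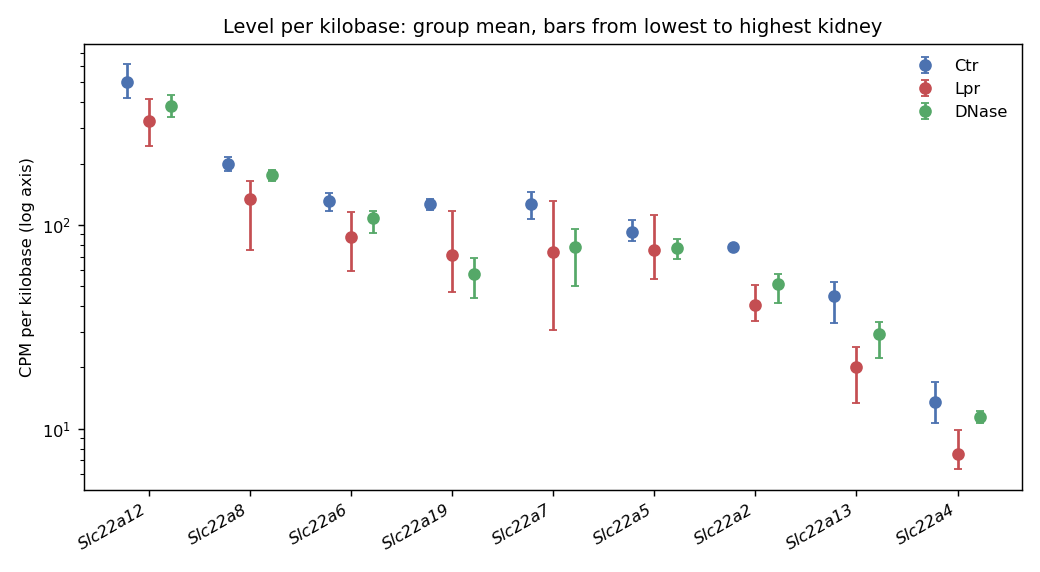
Level per kilobase of gene length for each member in Ctr, Lpr and DNase, on a log axis. Points are group means and bars run from the lowest to the highest kidney. Slc22a12 is highest and Slc22a4 lowest in all 3 groups, and on the log axis the Lpr bar is the longest of the 3 for every member except Slc22a4.

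The organic cation carrier of the list is Slc22a2, which encodes OCT2, the basolateral route by which creatinine, metformin and many other cations enter the proximal tubule cell. Its level was 188, 180.3 and 195 CPM in Ctr, 123, 82.2, 85.9 and 103 in Lpr, and 100.2, 139.5, 123 and 133 in DNase. Every MRL/lpr kidney, treated or not, was below every Ctr kidney. Between Lpr and Ctr the log2 fold change was -0.93 (SE 0.18, adjusted p = 0.0113), and it was -0.87 (SE 0.14, adjusted p = 0.00604) without Lpr replicate 3. The fall between DNase and Ctr was smaller, at -0.60 (SE 0.11, adjusted p = 0.00449). Between DNase and Lpr the difference was 0.34 (95% interval -0.04 to 0.71, adjusted p = 0.854), and the groups overlapped.

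Slc22a4 and Slc22a5 encode OCTN1 and OCTN2, carriers of zwitterions. OCTN1 is known for the uptake of ergothioneine, a dietary antioxidant, and OCTN2 for the recovery of carnitine, which cells need to burn fatty acids. Slc22a4 stood at 75.3, 58.1 and 47.4 CPM in Ctr and at 28.1, 31.3, 30.7 and 43.6 in Lpr. In DNase it was 54.5, 50.5, 47.3 and 49.6 CPM, above every Lpr kidney and overlapping with Ctr. The fall in Lpr against Ctr was -0.85 (SE 0.22, adjusted p = 0.0430), or -0.81 (adjusted p = 0.0406) without Lpr replicate 3. This call was the least steady of the 3, since it held under 7 of 17 other settings. Of all members, Slc22a4 had the largest difference between DNase and Lpr, at 0.60 (95% interval 0.25 to 0.96). Its unadjusted p was 0.00362 in edgeR's test, and the adjusted p was 0.82.

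Slc22a5 is the closest relative of Slc22a4 in the list, and a difference between these genes was not tested. In DNase against Ctr their fitted values were alike, at -0.26 for Slc22a5 and -0.25 (95% interval -0.57 to 0.06) for Slc22a4, which did not pass. Slc22a5 stood at 281, 341 and 268 CPM in Ctr, at 359, 213, 173 and 224 in Lpr and at 226, 273, 218 and 273 in DNase. The highest kidney of all 11 belonged to Lpr, and all 3 groups overlapped. The fitted difference was -0.29 (95% interval -0.87 to 0.29) between Lpr and Ctr, or -0.16 (SE 0.21, adjusted p = 0.658) when Lpr replicate 3 was left out. It was -0.26 (-0.52 to 0.01) between DNase and Ctr and 0.04 (-0.46 to 0.53) between DNase and Lpr, and none of these passed the test.

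Slc22a6 and Slc22a8 encode OAT1 and OAT3, the main basolateral uptake carriers for organic anions such as penicillins, diuretics and uremic solutes. Slc22a6 was 469, 574 and 541 CPM in Ctr, 466, 295, 239 and 408 in Lpr, and 369, 459.6, 447 and 473 in DNase. Slc22a8 was 784, 858 and 736 CPM in Ctr, 611, 561, 299.6 and 656 in Lpr, and 652, 735, 686 and 743 in DNase. Both genes were lowest in Lpr replicate 3, and in both the 4 Lpr kidneys lay below the 3 Ctr kidneys, by a narrow gap for Slc22a6. Neither passed the test between Lpr and Ctr. The fitted values were -0.58 (95% interval -1.14 to -0.03, adjusted p = 0.206) for Slc22a6 and -0.57 (-1.17 to 0.03, adjusted p = 0.259) for Slc22a8. Without Lpr replicate 3 they were -0.44 (adjusted p = 0.135) and -0.37 (adjusted p = 0.0515). In DNase both overlapped with Ctr, with differences of -0.27 (-0.52 to -0.02) and -0.17 (-0.37 to 0.04) that did not pass.

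Slc22a7 and Slc22a19 encode OAT2 and OAT5. OAT2 is known to carry cyclic nucleotides and other small anions, and OAT5 is an anion exchanger of the apical membrane in rodents. Slc22a7 was 292, 256 and 215 CPM in Ctr, 153, 61.4, 263 and 115 in Lpr, and 101, 191, 145 and 190.1 in DNase. Slc22a19 was 257, 265 and 235 CPM in Ctr, 131, 92.6, 232 and 112 in Lpr, and 86.7, 136, 97.5 and 136 in DNase. In both genes all 4 DNase kidneys lay below all 3 Ctr kidneys, and so did Lpr replicates 1, 2 and 4. Lpr replicate 3 was within the Ctr range for Slc22a7 and just below it for Slc22a19. Between DNase and Ctr, Slc22a19 had a log2 fold change of -1.15 (SE 0.16, adjusted p = 0.000828), the largest fall of the 9 in that comparison, which passed under all 17 other settings. Slc22a7 fell by 0.69 on the log2 scale (SE 0.21, adjusted p = 0.0423), a call that held under 8 of 17.

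Between Lpr and Ctr the calls for these 2 genes differed with and without Lpr replicate 3. With all 4 Lpr kidneys the log2 fold change was -0.83 (SE 0.29, adjusted p = 0.131) for Slc22a19 and -0.78 (SE 0.41, adjusted p = 0.332) for Slc22a7. Leaving that kidney out moved them to -1.17 (SE 0.13, adjusted p = 0.00131) and -1.21 (SE 0.30, adjusted p = 0.0323). Scaling out the length trend of each library, with all kidneys kept, gave -0.96 (adjusted p = 0.0163) for Slc22a19 and -0.92 (adjusted p = 0.123) for Slc22a7.

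Slc22a13 encodes OAT10, an apical exchanger of nicotinate and urate. It stood at 180.1, 169.7 and 114 CPM in Ctr, at 67.6, 75.6, 46.2 and 86.7 in Lpr and at 76.6, 115, 101 and 111 in DNase. No Lpr kidney reached the lowest Ctr kidney, and 1 DNase kidney did. With all kidneys in the fit, the fall between Lpr and Ctr was the largest of the members, at -1.16 (SE 0.25, adjusted p = 0.0192), or -1.01 (SE 0.18, adjusted p = 0.0085) without Lpr replicate 3. In DNase against Ctr it was -0.61 (SE 0.18, adjusted p = 0.0361), which passed under 6 of 17 other settings. The DNase kidneys were above Lpr by 0.55 (95% interval 0.09 to 1.02), with an unadjusted p of 0.0233 and an adjusted p of 0.85 in edgeR's test.

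Slc22a12, the urate carrier, had the highest counts and a wide spread. It was 1079, 1386 and 945 CPM in Ctr, 939, 742, 552 and 669 in Lpr, and 763, 897, 831 and 982 in DNase. The Lpr kidneys lay just below Ctr, and DNase overlapped with both. The fitted differences were -0.64 (95% interval -1.16 to -0.13, adjusted p = 0.131) in Lpr against Ctr and -0.38 (-0.70 to -0.07, adjusted p = 0.0849) in DNase against Ctr, and neither passed. Without Lpr replicate 3 the former was -0.53 (adjusted p = 0.0901).

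**Figure D3:**
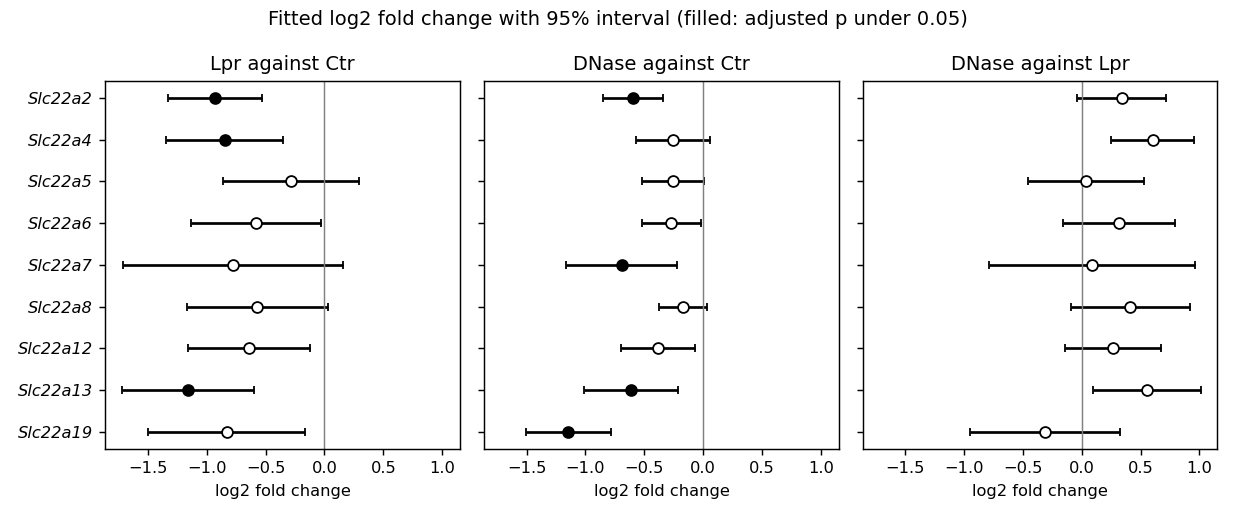
Log2 fold change of each member with its 95% interval from the edgeR fit, for Lpr against Ctr, DNase against Ctr and DNase against Lpr. Filled points passed at an adjusted p below 0.05. All 9 points lie below 0 in both comparisons with Ctr, with 3 and 4 filled, and none is filled between DNase and Lpr.

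Read over the list, 3 of 9 members passed in Lpr against Ctr, all lower, where 2.92% of the 16074 genes tested were called lower and 7.27% higher. All 9 fitted values were below 0, against 7628 of the 16074 genes, and the median was -0.78 for the members and 0.03 for all genes. In 7 of 9 members the Lpr kidneys lay wholly below Ctr, against 11.2% of all genes, with 14.4% of genes wholly above. When Lpr replicate 3 was left out, 5 members passed, against 6.79% of genes called lower, and the median was -0.81. The count was 0 without Ctr replicate 1 and 1 without Ctr replicate 2, Ctr replicate 3 or Lpr replicate 1, and the share of all genes called in those fits is not given here. The study's rule, which also asks for a log2 fold change beyond 2, was applied here to the edgeR fits, whereas the study names DESeq2. By it no member was called in either comparison with Ctr, against 5.78% of genes in Lpr and 6.01% in DNase.

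In DNase against Ctr, 4 of 9 members passed, all lower, where 8.61% of the 16100 genes tested were called lower and 13.1% higher. Over libraries left out, the count ran from 2, without Ctr replicate 1, Ctr replicate 2 or DNase replicate 3, to 6, without Ctr replicate 3. The share of all genes called in those fits is not given here, so these counts do not single out the members. The median was -0.38 for the members and 0.00 for all genes. Groups were wholly apart for 3 members, all lower, against 13.9% of genes lower and 18% higher. The comparisons of Lpr and DNase with Ctr share the same 3 Ctr kidneys, so their values are not independent.

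Between DNase and Lpr, which share a strain, edgeR called 0% of the 15832 genes tested, 0 in each direction. With the study's cut-offs on the edgeR values it called 0 too, and DESeq2 called no member. The study, which names DESeq2, did report differentially expressed genes in this comparison, both up and down. At an unadjusted p below 0.05 the test gave 2 members, Slc22a4 and Slc22a13, and 886 of all genes. The fitted value was above 0 for 8 of 9 members, with a median of 0.32 against -0.02 over all genes, and Slc22a19 was the member below 0, at -0.31 (95% interval -0.95 to 0.33). Slc22a4 was the member whose groups lay apart, higher in DNase, where 1.92% of genes did so higher and 1.87% lower. Without Lpr replicate 3 the median of the members was 0.21, no gene was called, 0% of 16006 lower, and the fitted values were 0.56 for Slc22a4, 0.40 for Slc22a13, 0.023 for Slc22a19 and -0.10 for Slc22a5. Leaving out that kidney moved Slc22a7 from 0.085 to 0.51 (SE 0.31, adjusted p = 0.598).

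The members were also set against the 12 proximal tubule markers outside the family, as the log2 CPM of the member minus the mean log2 CPM of the list in the same kidney. This mean differed by -0.03 between Lpr and Ctr and by 0.06 between DNase and Ctr. On this scale Slc22a13 was lower in Lpr than in Ctr by 1.15, Slc22a7 by 0.93, Slc22a2 by 0.92 and Slc22a5 by 0.31, against 1.17, 0.96, 0.95 and 0.34 without the markers. Without Lpr replicate 3, Slc22a13 was lower by 1.04, Slc22a7 by 1.34, Slc22a2 by 0.93 and Slc22a5 by 0.24 on the marker scale. The list's mean is raised in the MRL/lpr groups by Slc7a13, an amino acid transporter subunit that rose from at most 0.751 CPM in Ctr to between 1.2 and 5.15 in Lpr. Slc5a12, also among the 12, was at 0.69 (adjusted p = 0.327) in Lpr and 0.90 (adjusted p = 0.0257) in DNase by edgeR's test against Ctr. By the fits, 8 of the 12 markers had values below 0 and 4 above 0 in Lpr against Ctr, with a median of -0.19. In DNase against Ctr it was also 8 and 4, with a median of -0.23. Against the summed CPM of the list, in which abundant markers weigh most, the differences between Lpr and Ctr were smaller: -0.87 for Slc22a13, -0.65 for Slc22a7, -0.64 for Slc22a2, -0.54 for Slc22a4 and -0.03 for Slc22a5. Leaving replicate 3 out of Lpr, they were -0.80, -1.11, -0.70, -0.62 and -0.0037 in the same order. In DNase against Ctr they were -0.98 for Slc22a19, -0.42 for Slc22a2 and 0.02 for Slc22a8 on that scale.

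Lpr replicate 3 split the family. Against the mean of the other 3 Lpr kidneys, on the log2 CPM scale, Slc22a7 was higher there by 1.36 and Slc22a19 by 1.06, while Slc22a8 was lower by 1.02, Slc22a13 by 0.72, Slc22a6 by 0.68, Slc22a5 by 0.57, Slc22a12 by 0.49, Slc22a2 by 0.24 and Slc22a4 by 0.13. Slc22a19 and Slc22a7 are the shortest members, at 1984 and 2007 bases, and the linear trend over all genes gave 0.33 and 0.32 at those lengths. Slc22a12, at 2255 bases, had a trend value of 0.24 and a difference of -0.49. Among the family's other genes, Slc22a26, Slc22a28, Slc22a30 and Slc22a27, all of the chromosome 19 run beside Slc22a19, were higher in that kidney by 2.31, 2.01, 1.70 and 1.38, at lengths from 2381 to 4279 bases, and Slc22a29 of the same run by 0.42. Slc22a27 was at a low level, at 0.703 to 2.14 CPM in Lpr. Within Ctr alone Slc22a26 ran from 10.8 to 83.2 CPM and Slc22a30 from 2.78 to 12.6, so wide spreads were not limited to Lpr. In Lpr replicate 3, Hnf4a, a transcription factor of the proximal tubule, stood at 333 CPM, against 643 to 798 in the other Lpr kidneys. Hnf4a was not alone in this. The 5 transcription factors known to act on Slc22 genes, Hnf4a among them, had a mean log2 CPM of 5.02 there, against 6.42 to 6.74. The part of RNA length and of these factors in the members' values was not tested.

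**Figure D4:**
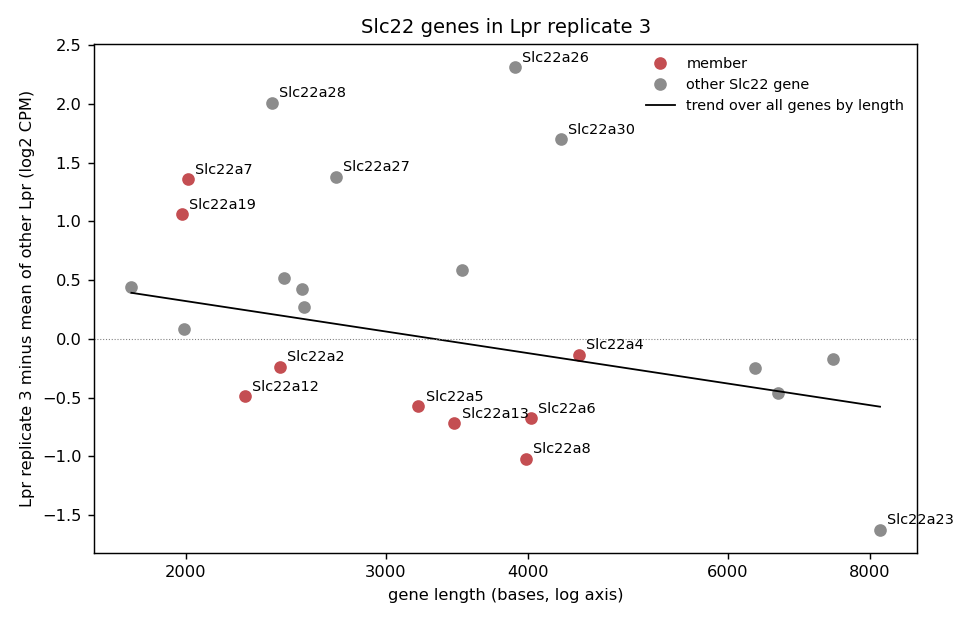
Log2 CPM of each Slc22 gene in Lpr replicate 3 minus the mean of the other 3 Lpr kidneys, against gene length on a log axis. Red points are the 9 members, grey points the 14 other Slc22 genes, and the black line is the trend by length over all genes. Slc22a7 and Slc22a19 lie above the line at 1.36 and 1.06, and the other members lie below it apart from Slc22a4, which is close to it at -0.13.

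None of the 14 other Slc22 genes in the table passed between Lpr and Ctr, though 12 of 14 fitted values were below 0, with -0.37 as their median. Leaving out Lpr replicate 3, 3 of 14 fell, namely Slc22a26, Slc22a27 and Slc22a29, the last by 0.73 on the log2 scale (SE 0.18, adjusted p = 0.0290). In DNase against Ctr, Slc22a27 fell by 0.85 on the log2 scale (SE 0.24, adjusted p = 0.0329), from 2.12 to 2.84 CPM in Ctr to 1.05 to 1.66 in DNase, and was the 1 gene of the 14 to pass. In Lpr the same gene was at -1.65 (SE 0.28, adjusted p = 0.00680) without replicate 3 and at -1.15 (adjusted p = 0.161) with it.

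The genes that work with these transporters were tested against Ctr in the same fits, and in Lpr several calls appeared once replicate 3 was left out. Among 5 genes that maintain the driving force, Slc13a3, the sodium-dicarboxylate cotransporter of the basolateral membrane, was 831 to 1132 CPM in Ctr, 308 to 690.02 in Lpr and 665 to 754 in DNase. It fell in DNase by 0.51 on the log2 scale (SE 0.12, adjusted p = 0.0128), and its value in Lpr was -0.92 (SE 0.28, adjusted p = 0.0827), or -0.72 (SE 0.16, adjusted p = 0.0217) without replicate 3. Slc13a2, its apical counterpart, fell in DNase by 0.41 (adjusted p = 0.0167), and the sodium pump subunits Atp1b1 and Fxyd2 did not pass in any comparison.

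Of 8 efflux carriers tested, which pass organic ions on into the urine, none passed in Lpr. Without replicate 3, 3 fell, Abcc2, Abcg2 and Abcc4, the last by 0.69 (SE 0.13, adjusted p = 0.0113). In DNase, Abcc4 fell by 0.43 (adjusted p = 0.0365) and Abcb1a rose by 0.59 (adjusted p = 0.0350). Slc47a1, which encodes MATE1, the apical partner of OCT2, was at 0.17 (SE 0.22) in Lpr, or 0.26 (SE 0.18) without replicate 3, and 0.13 (SE 0.15) in DNase. The 7 Slco organic anion transporters tested held 2 calls in Lpr, both lower. Slco4c1 fell by 3.65 (SE 0.52, adjusted p = 0.00299), from 3.03 to 7.19 CPM in Ctr to 0.12 to 0.512 in Lpr, and Slco1a6 by 0.72 (SE 0.18, adjusted p = 0.0402). Both passed without Lpr replicate 3 too, at -3.37 and -0.81. Slco4c1 also fell in DNase, by 3.13 (SE 0.38, adjusted p = 0.000391).

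Among 7 urate-handling genes tested, Slc5a8, a sodium-monocarboxylate cotransporter of the apical membrane, fell in both comparisons. It was 118 to 144 CPM in Ctr, 58.8 to 80.3 in Lpr and 64.2 to 82.9 in DNase, with log2 fold changes of -0.97 (SE 0.17, adjusted p = 0.00747) and -0.80 (SE 0.11, adjusted p = 0.000754), and at -0.90 (adjusted p = 0.00317) in Lpr without replicate 3. Xdh, the xanthine oxidoreductase that makes urate, rose in DNase by 0.95 (SE 0.10, adjusted p = 0.000138), and so did Slc5a12, by 0.90 (adjusted p = 0.0257). Xdh was at 1.33 (adjusted p = 0.145) in Lpr and at 1.64 (SE 0.21, adjusted p = 0.00203) without replicate 3, in which it stood at 28.6 CPM against 87.2 to 158 in the other 3. Slc5a12, a sodium-lactate cotransporter, was at 0.69 (adjusted p = 0.327) in Lpr and at 0.95 (SE 0.15, adjusted p = 0.0052) without that kidney. The apical scaffold proteins Pdzk1, Slc9a3r1 and Slc9a3r2, which hold Slc22 carriers in the brush border, did not pass in either comparison.

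Of 6 genes of carnitine synthesis and the mitochondrial carnitine shuttle, none passed in Lpr, where all 6 were below 0 with a median of -0.52. Without replicate 3, Aldh9a1 and Cpt1a fell, and the median was -0.40. In DNase 3 of 6 fell: Bbox1, the last enzyme of carnitine synthesis, by 0.86 (adjusted p = 0.0128), the carnitine-acylcarnitine carrier Slc25a20 by 0.40 (adjusted p = 0.0183) and Cpt1a by 0.35 (adjusted p = 0.0328). Bbox1 was at low levels throughout, at 1.32 to 3.45 CPM. Of 5 transcription factors known to act on Slc22 genes, none passed in Lpr, with or without replicate 3. In DNase, Ppara fell by 0.35 (adjusted p = 0.0226) and Hnf4g rose by 0.59 (adjusted p = 0.0279), while Hnf4a was at -0.14 and did not pass. Between DNase and Lpr no gene of these lists passed, with or without it.

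**Figure D5:**
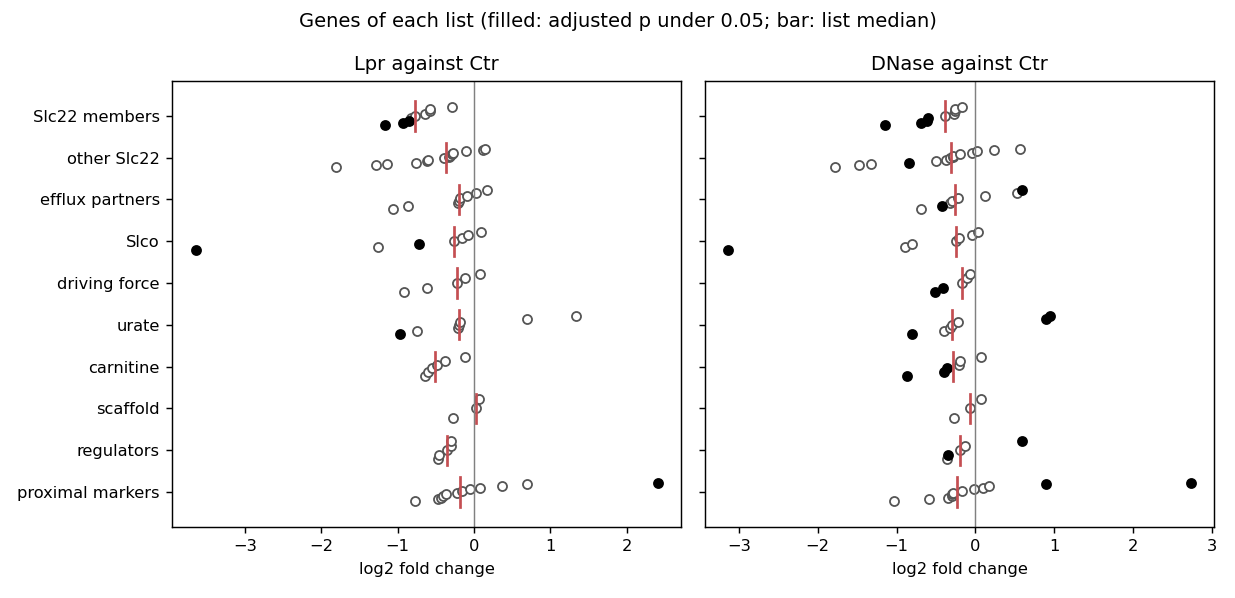
Log2 fold change of every tested gene in the members and in 9 related lists, for Lpr against Ctr and DNase against Ctr. Each point is a gene, filled where the adjusted p was below 0.05, and the red bar is the list's median. The members' median is the lowest of the 10 lists in both panels, at -0.78 and -0.38, and the far left point of the Slco list is Slco4c1.

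Taken by likeness, as the root mean square difference of log2 CPM over the 11 kidneys after centring each gene, the closest pairs of members were Slc22a5 with Slc22a12 at 0.17 and Slc22a6 with Slc22a8 at 0.17. Slc22a7 was farthest from Slc22a8, at 0.74, and nearest to Slc22a19, at 0.32. Without Lpr replicate 3 the same pairs came closest, at 0.15 for Slc22a6 with Slc22a8 and 0.18 for Slc22a5 with Slc22a12, whereas Slc22a7 was then nearest to Slc22a2, at 0.29 against 0.33 for Slc22a19, and farthest from Slc22a5, at 0.51 against 0.49 for Slc22a8. The likeness to genes outside the family was taken over all 11 kidneys. In that search of 13233 genes, Slc22a2 was most like Paqr9 and Slc5a8, both at 0.14, Slc22a6 most like Cyb5d1 at 0.11, Slc22a8 most like Nudt12 at 0.07, Slc22a12 most like Clcn2 at 0.10 and the brush border protease gene Mep1a at 0.11, and Slc22a13 most like Acsm5 and Acot3, both at 0.16. Slc22a7 had no gene so near, its closest being Slc10a2, the apical sodium-dependent bile acid transporter, at 0.29.

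The stretch before the RefSeq start was read for the members in the RefSeq promoter table (GRCm38.p6), which held 8 of 9 and not Slc22a7. By the GENCODE annotation, the windows of Slc22a8 and Slc22a12 lie in annotated exons over all 250 bases and that of Slc22a2 overlaps one by 57, so these are not all sequence upstream of a gene. Windows of 250 bases upstream of the RefSeq start were searched on both strands for GTTAAT, which the windows of the neighbours Slc22a6 and Slc22a8 share, for its shorter core GTTAA, for CAAAGTCCA, a classical HNF4 site, and for TATAAA. The motifs were chosen after the windows had been seen, and the short core is contained in the longer form. GTTAAT was found in 2 of 8 members, Slc22a6 and Slc22a8, and in 6.432% of the 32851 promoters of the table. The core GTTAA was found in 5 of 8, also in Slc22a12, Slc22a13 and Slc22a19, and in 21.66% of all promoters. CAAAGTCCA and TATAAA were in none of the 8, and in 0.3835% and 12.37% of all. Whether these sequences bear on the levels in the kidneys was not tested. The 30 bases around GTTAAT, in capitals, are given for the neighbours Slc22a6 (chr19:8617928-8617957, plus strand) and Slc22a8 (chr19:8593089-8593118, plus strand).
Slc22a6: aatactcacaggGTTAATccttctgacacc
Slc22a8: cccctgccggatGTTAATcttccaaagaaa

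The whole windows are shown for Slc22a6 (chr19:8617746-8617995, plus strand), for Slc22a13 (chr9:119209106-119209355, minus strand), which had the largest fall in Lpr with all kidneys in the fit, and for Slc22a19 (chr19:7711311-7711560, minus strand), which had the largest fall in DNase. Each is written 5′ to 3′ along the gene, with GTTAA on either strand in capitals. Slc22a6 holds it 56 and 28 bases before the start, Slc22a13 158 bases before it, and Slc22a19 at 4 places, of which those at 138 and 137 bases overlap.
Slc22a6: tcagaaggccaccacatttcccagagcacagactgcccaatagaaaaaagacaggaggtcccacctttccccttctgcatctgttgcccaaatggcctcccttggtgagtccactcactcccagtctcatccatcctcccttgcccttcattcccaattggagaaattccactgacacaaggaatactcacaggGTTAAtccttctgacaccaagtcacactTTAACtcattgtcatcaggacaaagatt
Slc22a13: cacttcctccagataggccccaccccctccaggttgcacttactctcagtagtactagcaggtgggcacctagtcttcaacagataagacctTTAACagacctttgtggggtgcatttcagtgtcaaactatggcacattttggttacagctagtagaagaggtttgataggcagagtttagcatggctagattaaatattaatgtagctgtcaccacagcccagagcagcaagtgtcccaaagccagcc
Slc22a19: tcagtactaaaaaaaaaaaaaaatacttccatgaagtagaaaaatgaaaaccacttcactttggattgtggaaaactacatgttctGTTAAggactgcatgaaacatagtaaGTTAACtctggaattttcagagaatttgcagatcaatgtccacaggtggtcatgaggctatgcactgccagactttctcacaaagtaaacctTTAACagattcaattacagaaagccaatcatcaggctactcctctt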

How the data were processed

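Total RNA of whole kidneys was extracted with TRIzol, and libraries were made with the VAHTS Universal V6 kit and sequenced as 100 bp paired-end reads on an Illumina instrument. The deposited table holds raw counts per gene and FPKM per gene and sample, both made by the authors. The submitters' processing notes name fastp, HTSeq, DESeq2, R 3.2.0 and mm10, and the study's methods name HTSeq 0.6.0 for the alignment to genes too. Any other aligner, the annotation and the use of strand were not given in the sources used here.

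Counts were tested with edgeR 4.0.16 (R 4.3.3) in pairwise fits of the libraries of both groups, with filterByExpr, TMM scaling, the quasi-likelihood F test and Benjamini-Hochberg adjustment over all genes tested. Standard errors and 95% intervals come from that fit. Log2 CPM used a prior count of 2. Gene length was taken from the ratio of count to FPKM. Alternatives were other size factors, DESeq2 1.42.0, no filter, 1 fit of all 11 libraries, a replicate block, a length offset, limma 3.58.1 on log2 FPKM with a pseudocount of 1 or 0.1 over genes with FPKM of at least 0.5, and leaving out each library. The code was tested on simulated data. Each library is 1 mouse. The named genes are the 9 members, genes of the lists and, for each member, the 2 genes nearest by likeness among those with a mean of at least 1 CPM, without predicted genes and pseudogenes. The members and lists were chosen with earlier results of these data known. Libraries of a group differed beyond sampling noise, with chi-square per degree of freedom of 16.5 to 366. Sequences are from RefSeq and positions from GENCODE M21.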

Additional observations from a re-analysis of the deposited data

How the results depend on the processing

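Of 468 fold changes of members refitted under other settings, 414 kept their direction and side of the threshold, 36 lost the call, 8 gained it and 10 turned direction. The 10 were all between DNase and Lpr with a library left out, and none passed: Slc22a5 ran from -0.10 to 0.29 over the libraries left out, Slc22a7 from -0.18 to 0.51 and Slc22a19 from -0.48 to 0.023. The number of members passed in Lpr against Ctr was 3, and 0 to 5 with a library left out. It was 0 without Ctr replicate 1, 1 without Ctr replicates 2 or 3 or Lpr replicate 1, and 5 without Lpr replicate 3. In DNase against Ctr it was 4, and 2 to 6 with a library left out, with 2 without Ctr replicates 1 or 2 or DNase replicate 3. It was 2 with library totals only, 2 with all 11 libraries in 1 fit and 2 with limma at either pseudocount. With a library left out the counts went both up and down, and the causes, loss of power among them, were not tested. The calls over all genes in the same fits are not given beside these counts, nor beside those of the replicate block below. None of these counts therefore singles out the members. Slc22a2 in Lpr passed under 14 of 17 settings and Slc22a13 under 14, with adjusted p of up to 0.0607 and 0.0959, and Slc22a2 and Slc22a19 in DNase under all 17. Between DNase and Lpr no member passed under any of 18 settings. Same-numbered libraries did not deviate together (r from -0.28 to 0.16), so the numbers pair nothing. With the replicate block, 1 member passed in Lpr against Ctr, where Lpr replicate 4 drops out of the contrast, 2 in DNase against Ctr and 0 between DNase and Lpr, and with the block and the length offset 3, 2 and 0. Against the summed CPM of the proximal list, a setting added after the data were seen, Slc22a2 moved from -0.92 to -0.64 and Slc22a6 from -0.60 to -0.32 in Lpr, and from -0.67 to -0.42 and -0.33 to -0.08 in DNase. With at least 998 reads for each member in each library, the intervals reflect the spread between mice more than counting error.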
